A study of Mus musculus with 8 samples.

Results

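The enzymes described here make UDP-N-acetylglucosamine (UDP-GlcNAc) from a sugar phosphate of glycolysis and place GlcNAc on, and take it from, nuclear and cytosolic proteins. The members were the rows of the deposited FPKM table named Gfpt1, Gnpnat1, Pgm3, Uap1, Nagk, Ogt and Oga. FPKM are fragments scaled to gene length and to a total per library. All 7 members were found among 56748 listed genes. Of these, 6 passed the expression filter, an FPKM of 1 or more in 2 or more of the 8 libraries, as did 11818 genes in all. Gnpnat1 did not.

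The libraries came from 32D cells, a mouse myeloid line that depends on interleukin 3 (IL-3) and here expressed murine Jak2WT or Jak2V617F, the mutant kinase of myeloproliferative neoplasms. In each background there were 2 clones with intact glucose transporters (GLUT1/3 WT) and 2 clones in which CRISPR-Cas9 had been aimed at both Slc2a1 and Slc2a3, the genes of GLUT1 and GLUT3 (GLUT1/3 dKO). The clones carried the numbers 1 and 3, each had grown from one cell, and the groups thus hold clones of a line rather than animals, so that the p-values measure the spread between these clones. All 8 cultures were kept for 24 h in RPMI with 5 mM glucose, 1 mM glutamine, 10% serum and 2 ng/ml IL-3, without pyruvate. The 4 groups allow 4 comparisons, dKO against GLUT1/3 WT in each background and Jak2V617F against Jak2WT in each GLUT1/3 genotype, and the interaction, which is the dKO difference in Jak2V617F minus that in Jak2WT. Each group enters 2 of the 4 comparisons, so these are not independent of each other.

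The hexosamine pathway branches from glycolysis at fructose-6-phosphate. GFPT1 joins it to the amide nitrogen of glutamine in the committed step, GNPNAT1 adds the acetyl group, PGM3 moves the phosphate, and UAP1 couples the product to UDP. NAGK returns free GlcNAc, as released from broken-down glycans, to the pathway. OGT then transfers GlcNAc from UDP-GlcNAc to serines and threonines of intracellular proteins and OGA removes it. Since the route uses glucose, glutamine, acetyl-CoA and UTP, O-GlcNAc is known as a mark that follows nutrient supply, and blood cells also need UDP-GlcNAc for the glycans of their receptors.

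The stretches before the RefSeq starts of the genes that the results turn on are shown first, because Gfpt1, Uap1 and Oga changed while Ogt did not pass the test. Promoter windows of 300 bases, 250 before and 50 after the start, were taken from RefSeq (GRCm38.p6) and held 6 of the 7 members, with none for Gnpnat1. Each window was placed in GRCm39, the build of the deposited table, by an exact match to that genome. Only the run before the RefSeq start that lies in no annotated exon of the gene is printed, 5′ to 3′ on the gene's strand, which left no run for Pgm3. Capitals mark the letters ACGTG or GCGTG, the core bound by HIF factors, read on either strand. The Gfpt1 run is chr6:87019578-87019800 on the forward strand, that of Uap1 is chr1:170002557-170002783 on the reverse strand, that of Oga is chr19:45772043-45772133 on the reverse strand, and that of Ogt is chrX:100683407-100683631 on the forward strand. The Oga run lies inside the span that the deposited table lists for the gene, downstream of its listed start, and the other runs lie in front of the listed spans.
Gfpt1: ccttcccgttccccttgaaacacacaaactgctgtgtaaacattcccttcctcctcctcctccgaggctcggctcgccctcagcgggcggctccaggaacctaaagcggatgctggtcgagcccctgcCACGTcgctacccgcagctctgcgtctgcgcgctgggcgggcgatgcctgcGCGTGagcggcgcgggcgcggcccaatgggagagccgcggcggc
Uap1: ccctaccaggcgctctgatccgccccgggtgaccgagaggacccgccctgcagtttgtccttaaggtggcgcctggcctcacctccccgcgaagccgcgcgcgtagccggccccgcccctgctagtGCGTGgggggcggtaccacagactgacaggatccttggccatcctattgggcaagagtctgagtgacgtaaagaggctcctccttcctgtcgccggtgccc
Oga: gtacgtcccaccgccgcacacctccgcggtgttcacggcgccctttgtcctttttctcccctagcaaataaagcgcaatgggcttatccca
Ogt: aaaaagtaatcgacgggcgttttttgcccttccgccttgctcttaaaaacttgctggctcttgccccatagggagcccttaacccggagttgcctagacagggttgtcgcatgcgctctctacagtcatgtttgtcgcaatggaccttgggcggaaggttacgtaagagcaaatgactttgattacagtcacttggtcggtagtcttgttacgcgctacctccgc

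Over the whole window, Gfpt1 held ACGTG once and GCGTG at 2 places, 71 and 25 bases before the start. Uap1 held GCGTG 124 bases before the start. It also held TGACGTG, the core of the unfolded protein response element, just after the start, and ACGTG lies inside it. Nagk held GCGTG once, Pgm3 held ACGTG once, and the windows of Oga and Ogt held neither. The E-box CACGTG, the amino acid response element core TGATGNAA and the STAT motif TTCNNNGAA were found in none of the 6 members' windows. Of all 32851 promoter windows of this length, 19.6% held ACGTG, 32.4% GCGTG, 2.01% TGACGTG, 7.15% CACGTG, 3.97% TGATGNAA and 8.30% TTCNNNGAA. A match is a run of letters and no evidence of binding.

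The reads on genes, recovered from the FPKM and the listed gene lengths, ranged from 16846011 to 48884329 per library, and the members' values rest on at least 212 reads in every library apart from Gnpnat1. Slc2a1 was at 44.7 to 64.0 FPKM in the 4 GLUT1/3 WT libraries and at 9.17 to 17.3 in the 4 dKO libraries, and it fell in both backgrounds (limma, adjusted p = 0.000872 in Jak2WT and 0.000445 in Jak2V617F). Slc2a3 was at 91.9 to 198 FPKM in GLUT1/3 WT and at 16.0 to 49.5 in dKO libraries, and passed the test in Jak2V617F (adjusted p = 0.0116) but not in Jak2WT (0.0612), where dKO clone 3 stood at 49.5 and clone 1 at 16.0. Transcript level is not a readout of the edit itself. Of 10 myeloid progenitor markers, 5 were at 1 FPKM or more in every library, while Kit was at 0 in all groups and Cd34 in 3 of them. The summed FPKM of the 10 was 219 to 247 in Jak2WT GLUT1/3 WT, 160 to 197 in Jak2WT dKO, 196 to 201 in Jak2V617F GLUT1/3 WT and 89.1 to 92.0 in Jak2V617F dKO, and most of it was Csf2rb, a cytokine receptor subunit, at means of 176, 132, 129 and 52.1 FPKM. That of 7 erythroid markers was 90.1 to 108, 242 to 287, 545 to 903 and 2572 to 4657 in the same order. The higher sums lay in the globin genes, with Hba-a1 at means of 56.5, 201, 570 and 1500 FPKM, while the erythroid factor Gata1 was at 29.9, 26.6, 53.4 and 37.6. Sums of the B cell, T cell and stroma markers stayed below 1. In such bulk libraries, fewer cells of a type and less RNA per cell cannot be told apart.

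Per length, Ogt and Oga were the most abundant members. In the Jak2WT GLUT1/3 WT clones the mean level was 42.6 FPKM for Ogt and 42.0 for Oga, followed by Gfpt1 at 14.3, Uap1 at 11.03, Pgm3 at 5.04, Nagk at 3.19 and Gnpnat1 at 0.163. The clones of Ogt and Oga overlapped there, whereas each later pair of neighbours in the order did not. In the Jak2WT dKO clones the order changed: Gfpt1, at 20.5 FPKM, and Uap1, at 15.6, both stood above Oga at 14.4. In the Jak2V617F dKO clones Oga, at 27.3, stayed above Gfpt1 at 13.7 and Uap1 at 8.68.

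**Figure D1:**
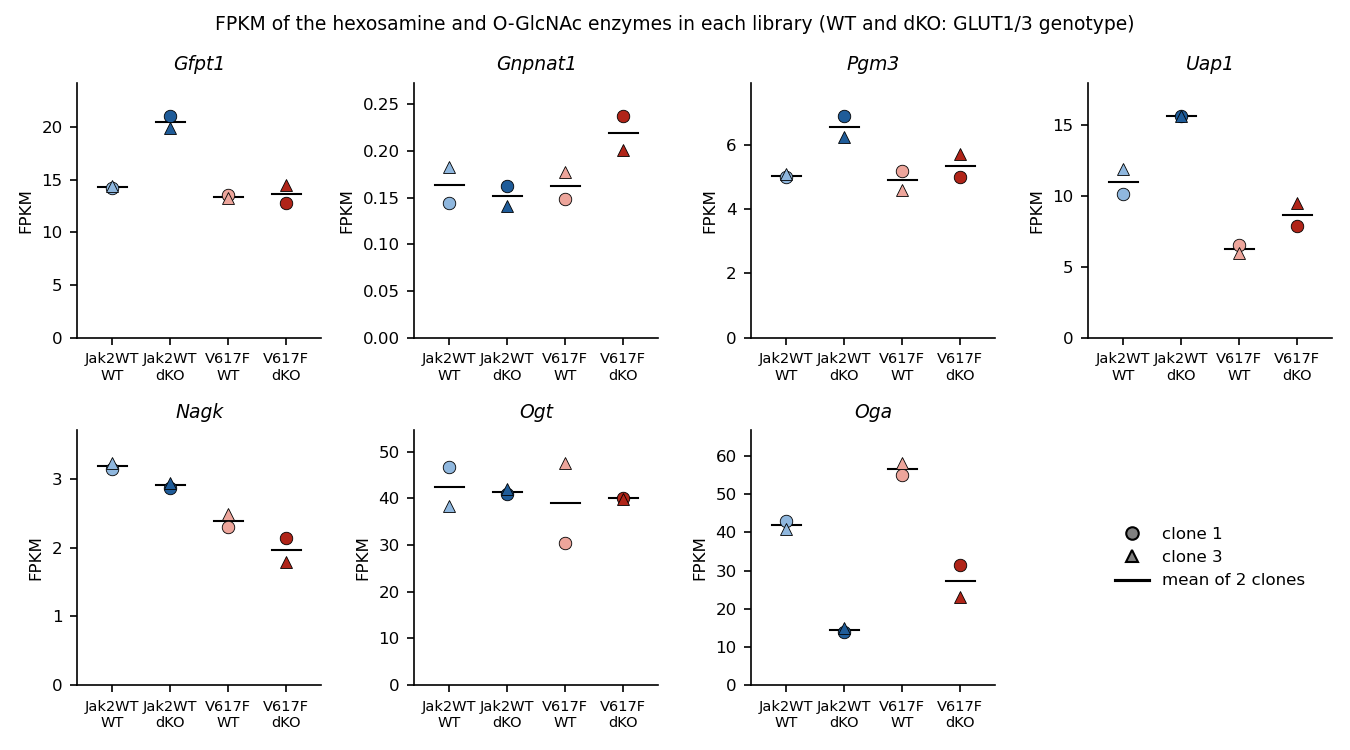
FPKM of each of the 7 enzymes (vertical axes, each from 0) in the 8 libraries, by Jak2 background and GLUT1/3 genotype, with circles for clone 1, triangles for clone 3 and a line for the mean of 2 clones. Oga lies at 40.9 FPKM or more in all GLUT1/3 WT clones and at 31.6 or less in all dKO clones, Gfpt1 is at 19.9 or more in Jak2WT dKO and at 14.5 or less in the other groups, and Uap1 is lowest in Jak2V617F GLUT1/3 WT.

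In Jak2WT cells, loss of GLUT1/3 was accompanied by a fall of the Oga transcript and by a rise of those of Gfpt1 and Uap1. Pgm3 was higher by 0.32 without overlap of the clones but, like Nagk and Ogt, did not pass the test. In limma on log2(FPKM + 1), adjusted over all genes tested, 2 of the 6 tested members were called higher and 1 lower, against 7.62% of all genes higher and 6.06% lower. The median difference was 0.15 over the members and 0.0082 over all genes, on the log2(FPKM + 1) scale used for every difference here. Of all calls, 55.7% were higher, and 33.9% when the libraries were scaled to the same summed FPKM.

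In Jak2V617F cells the fall of Oga and the rise of Uap1 recurred, and Gfpt1 was not called. Here 1 member was called higher and 1 lower, against 13.7% and 16.2% of all genes, and the median difference was 0.047 over the members and -0.019 over all genes. The share of higher calls was 45.7%, and 60.2% with libraries scaled to the same summed FPKM.

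**Figure D2:**
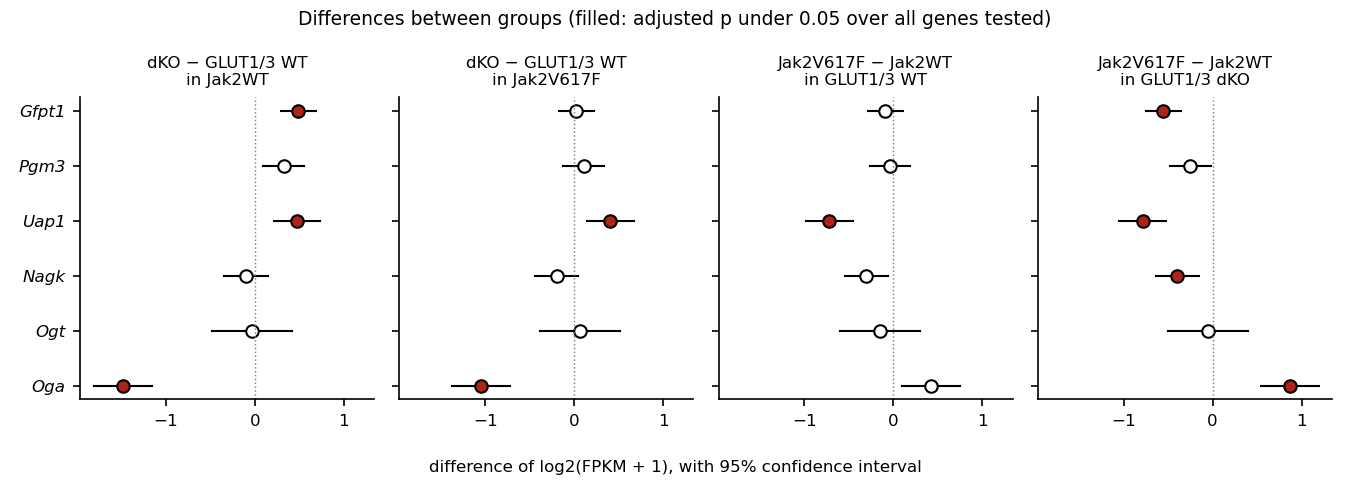
Difference of log2(FPKM + 1) between groups for the 6 tested members (horizontal axis, points) with its 95% confidence interval from limma, in 4 comparisons, filled where the adjusted p was under 0.05. Oga is filled on the left side in both dKO comparisons, at -1.49 and -1.04, Uap1 is filled in all 4 panels, and the intervals of Ogt cover 0 in each.

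Gfpt1 encodes the glutamine:fructose-6-phosphate amidotransferase that controls entry into the pathway (ENSMUSG00000029992, chromosome 6, 87019828 to 87069179, forward strand). Its level was 14.2 and 14.4 FPKM in the Jak2WT GLUT1/3 WT clones, 21.0 and 19.9 in Jak2WT dKO, 13.6 and 13.2 in Jak2V617F GLUT1/3 WT, and 12.8 and 14.5 in Jak2V617F dKO. The Jak2WT dKO clones stood apart from the other 6 libraries, which lay within 12.8 to 14.5, with both Jak2V617F GLUT1/3 WT clones below both Jak2WT GLUT1/3 WT clones. The rise in Jak2WT was 0.49 (SE 0.084, limma, adjusted p = 0.0137, 1.43-fold in mean FPKM). In Jak2V617F the difference was 0.024, with a 95% interval from -0.17 to 0.22. The direct test of this contrast, the interaction, gave -0.46 (SE 0.12, limma, adjusted p = 0.0494), just under the threshold, and it passed in 3 of 16 alternative settings only. The difference in Jak2WT stayed at 0.45 to 0.53 when 1 of the 4 Jak2WT libraries was left out. The call was then lost in each case, and calls over all genes fell too.

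Gfpt1 was also lower in Jak2V617F dKO than in Jak2WT dKO clones, by a difference of -0.55 (SE 0.084, limma, adjusted p = 0.00596). Without Jak2WT dKO clone 1 this was -0.52 with an adjusted p of 0.0534. Between the GLUT1/3 WT clones of the backgrounds it was -0.089 (adjusted p = 0.456). Gfpt2, the paralog found in other tissues, stood at 0.0125 to 0.0361 FPKM and was below the filter, so nearly all transcript for this step came from Gfpt1. The genes whose log2(FPKM + 1) followed Gfpt1 most closely over the 8 libraries were Mcfd2, Lilrb4b and Slc30a2, with Pearson's r of 0.996, 0.988 and 0.988. Lilrb4b and Slc30a2 stood at 8.37 and 5.05 and at 2.74 and 1.97 FPKM in the Jak2WT dKO clones and at 0.775 or less elsewhere. They were picked for their likeness to Gfpt1 and passed the filter only through these clones.

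Gnpnat1, the acetyltransferase of the second step, was listed at 0.144 and 0.183 FPKM in Jak2WT GLUT1/3 WT, 0.163 and 0.141 in Jak2WT dKO, 0.148 and 0.177 in Jak2V617F GLUT1/3 WT, and 0.237 and 0.201 in Jak2V617F dKO, from 15 to 39 reads per library (ENSMUSG00000037722, chromosome 14, 45613791 to 45642370, reverse strand). With no filter on low values its differences lay between -0.014 and 0.081 and none passed (lowest adjusted p = 0.311). The pathway has no other enzyme for this step, and its low value is set beside the gene's position. In GENCODE vM39, 2574 of the 2788 exonic bases of Gnpnat1-201 (92.3%), with 5 of its 6 exons whole, lie within exons of Styx on the opposite strand, chiefly in the long last exon of Styx-205. Styx itself was at 1.58 to 2.28 FPKM. The strand setting of the authors' counting is not given in the sources used here, and without strand such reads cannot be assigned to one of the genes, so the level of Gnpnat1 is uncertain. The part of the overlap in its low value was not tested.

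**Figure D3:**
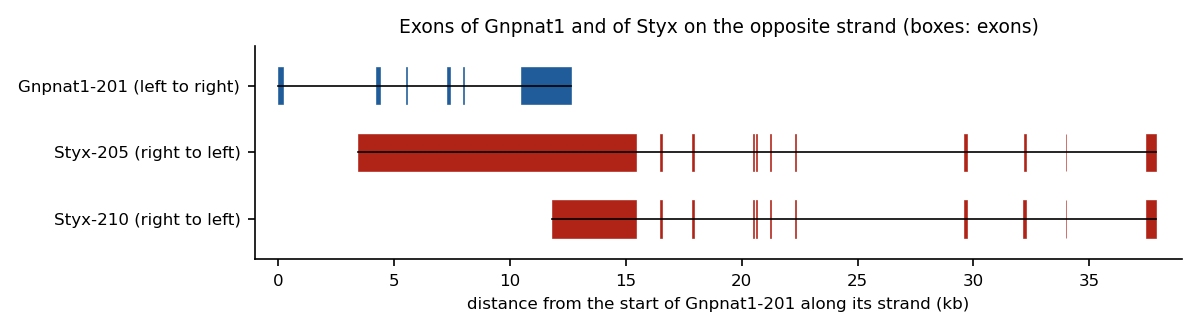
Exons (boxes) of Gnpnat1-201 and of Styx-205 and Styx-210, transcribed in the opposite direction, against the distance in kb from the start of Gnpnat1-201 along its strand. All exons of Gnpnat1-201 but the one at 0 kb lie inside the last exon of Styx-205, which runs from 3454 to 15449 bases.

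Pgm3, the phosphomutase, was at 5.00 and 5.07 FPKM in Jak2WT GLUT1/3 WT, 6.88 and 6.24 in Jak2WT dKO, 5.19 and 4.58 in Jak2V617F GLUT1/3 WT, and 5.00 and 5.70 in Jak2V617F dKO (ENSMUSG00000056131, chromosome 9, 86436430 to 86453895, reverse strand). The Jak2WT dKO clones were again the highest, and the other groups overlapped. The difference in Jak2WT was 0.32 (SE 0.098, limma, adjusted p = 0.0679) and that in Jak2V617F 0.11 (adjusted p = 0.437), so that neither passed. The 95% interval in Jak2WT ran from 0.094 to 0.55. Jak2V617F dKO against Jak2WT dKO gave -0.25 (adjusted p = 0.125). Of the exonic bases of Pgm3-201, 48.6% are shared with Dop1a and Rwdd2a on the other strand, which bears on its level as for Gnpnat1. Over the 8 libraries its closest genes were Nme6, Smg8 and Nedd1 (r of 0.984, 0.980 and 0.977), and its r with Gfpt1 was 0.925.

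Uap1, the pyrophosphorylase that forms UDP-GlcNAc, differed with both the transporter genotype and the Jak2 background (ENSMUSG00000026670, chromosome 1, 169969507 to 170002526, reverse strand). It was at 10.2 and 11.9 FPKM in Jak2WT GLUT1/3 WT, 15.6 and 15.6 in Jak2WT dKO, 6.58 and 6.01 in Jak2V617F GLUT1/3 WT, and 7.87 and 9.49 in Jak2V617F dKO. No group overlapped another, and both Jak2V617F groups lay below both Jak2WT groups. In dKO clones it rose by 0.47 in Jak2WT (SE 0.11, limma, adjusted p = 0.0351) and by 0.40 in Jak2V617F (SE 0.11, adjusted p = 0.0322). The interaction was -0.068, with a 95% interval from -0.44 to 0.30. Jak2V617F was lower than Jak2WT by -0.72 among the GLUT1/3 WT clones (adjusted p = 0.00416, 1.75-fold) and by -0.79 among the dKO clones (adjusted p = 0.00488, 1.80-fold).

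The Jak2 difference of Uap1 kept its side of the threshold in all 17 alternatives for both genotypes, with the highest adjusted p at 0.0346 and 0.0395. The dKO calls did not. In Jak2WT, leaving out GLUT1/3 WT clone 1 or 3 or dKO clone 1 or 3 gave adjusted p of 0.198, 0.0828, 0.149 and 0.133. In Jak2V617F, leaving out GLUT1/3 WT clone 1 or 3 gave 0.0695 and 0.124, dKO clone 3 gave 0.122, and Jak2WT dKO clone 1 or 3, which enter through the shared spread, gave 0.0568 and 0.0566. Both calls were also lost without the filter on low values, and that in Jak2V617F with the groups compared alone. The direction stayed in each. The closest genes were Fkbp2, Ide and Xbp1, with r of 0.994, 0.990 and 0.987, and 82 of 11817 genes had an r over 0.95. Xbp1, a transcription factor of the unfolded protein response, was at 68.3 and 80.0, 92.1 and 93.5, 42.2 and 41.2, and 55.2 and 66.0 FPKM in the same order of groups. The erythroid marker sum given above was higher in both Jak2V617F groups than in both Jak2WT groups, with Uap1 lower, and its part in the result was not tested. Uap1l1, a paralog, was at 7.62 to 12.1 FPKM and passed in none of the comparisons (lowest adjusted p = 0.265).

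Nagk, the kinase of GlcNAc salvage, was at 3.15 and 3.23 FPKM in Jak2WT GLUT1/3 WT, 2.87 and 2.95 in Jak2WT dKO, 2.30 and 2.50 in Jak2V617F GLUT1/3 WT, and 2.15 and 1.80 in Jak2V617F dKO (ENSMUSG00000034744, chromosome 6, 83771964 to 83781000, forward strand). The groups stood in this order without overlap. Loss of GLUT1/3 gave -0.10 in Jak2WT (adjusted p = 0.555) and -0.19 in Jak2V617F (adjusted p = 0.196), neither past the threshold. Among the dKO clones Jak2V617F was lower, by -0.40 (SE 0.10, limma, adjusted p = 0.0398), and this call was lost in 11 of 17 alternatives. In 7 of those a library had been left out. These were Jak2WT GLUT1/3 WT clone 1 (adjusted p = 0.0805) or 3 (0.0809), Jak2WT dKO clone 1 (0.152) or 3 (0.158), Jak2V617F GLUT1/3 WT clone 1 (0.0524) or 3 (0.0524), and Jak2V617F dKO clone 3 (0.108). Among the GLUT1/3 WT clones the difference was -0.30 (adjusted p = 0.0632), and it passed without Jak2V617F dKO clone 1 (0.0454) or 3 (0.0444). Slc37a3, Ikzf2 and Eef2kmt followed it most closely (r of 0.988, 0.979 and 0.979).

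Ogt, the only O-GlcNAc transferase of the nucleus and cytosol, was at 46.7 and 38.4 FPKM in Jak2WT GLUT1/3 WT, 40.9 and 41.9 in Jak2WT dKO, 30.4 and 47.5 in Jak2V617F GLUT1/3 WT, and 40.1 and 39.9 in Jak2V617F dKO (ENSMUSG00000034160, chromosome X, 100683666 to 100727957, forward strand). The GLUT1/3 WT clones of a background spanned the values of its dKO clones, and the widest gap lay between the Jak2V617F GLUT1/3 WT clones. Loss of GLUT1/3 gave -0.032 in Jak2WT (limma, adjusted p = 0.933, 95% interval -0.48 to 0.42) and 0.071 in Jak2V617F (adjusted p = 0.810, -0.38 to 0.52). These intervals still hold changes of up to those bounds, and they are no limit of detection for the adjusted test. Leaving out Jak2V617F GLUT1/3 WT clone 1 turned the latter to -0.24, and leaving out Jak2WT GLUT1/3 WT clone 1 turned the former to 0.11. Between the backgrounds the differences were -0.15 and -0.049, and without Jak2V617F GLUT1/3 WT clone 3 the former became -0.47 with an adjusted p of 0.0472, whereas without clone 1 it became 0.16. Tia1, an RNA-binding splicing regulator, followed Ogt most closely (r = 0.966), and the next genes, Gm28188 and Gm28370, had r of 0.930 and 0.928. It was the only gene with an r over 0.95, against 7 to 82 for the other members.

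Oga, the O-GlcNAc hydrolase, had the largest difference of the 6 tested members in both dKO comparisons. It was at 43.1 and 40.9 FPKM in Jak2WT GLUT1/3 WT, 13.8 and 14.9 in Jak2WT dKO, 55.1 and 58.1 in Jak2V617F GLUT1/3 WT, and 31.6 and 23.0 in Jak2V617F dKO (ENSMUSG00000025220, chromosome 19, 45738698 to 45772276, reverse strand). The 4 dKO libraries all lay below the 4 GLUT1/3 WT libraries, and within each genotype both Jak2V617F clones lay above both Jak2WT clones. The fall was -1.49 in Jak2WT (SE 0.14, limma, adjusted p = 0.00282, 2.92-fold) and -1.04 in Jak2V617F (SE 0.14, adjusted p = 0.00222, 2.07-fold). By size of the difference it ranked 68 of 11818 genes in Jak2WT and 527 in Jak2V617F. Both calls held in all 17 alternatives, with the highest adjusted p at 0.0315 and 0.0255 and differences of -1.58 to -1.43 and of -1.26 to -0.82.

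The difference in the size of the Oga fall between the backgrounds, 0.44 (SE 0.20), did not pass (limma, adjusted p = 0.179, 95% interval -0.017 to 0.90), although without Jak2V617F dKO clone 3, the lower of its group, it was 0.66 with an adjusted p of 0.0283. Oga was higher in Jak2V617F than in Jak2WT dKO clones by 0.87 (adjusted p = 0.00763, 1.90-fold), or by 0.81 with an adjusted p of 0.0591 without Jak2WT dKO clone 1. Among the GLUT1/3 WT clones the difference was 0.42 (adjusted p = 0.0563), and it passed without Jak2V617F dKO clone 1 (0.00972) or 3 (0.00974), the group whose clones lay farthest apart. Sbf1, Runx1 and Fam168a followed it most closely (r of 0.987, 0.985 and 0.980), with Runx1, a haematopoietic transcription factor, at 10.1 to 12.1 FPKM in the GLUT1/3 WT and 6.32 to 9.92 in the dKO libraries. Of the exonic bases of Oga-201, 10.8% are shared with Gm15491 on the other strand. The erythroid marker sum was higher and the myeloid marker sum lower in the dKO clones of each background, though not for each marker, since mean Gata1 was lower in both and mean Il3ra was 8.20 against 6.72 FPKM in Jak2WT. The part of these markers in the fall of Oga was not tested.

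Because a ratio within a library does not depend on its scaling, Ogt was set against Oga, the enzymes that write and erase the mark. The ratio was 1.08 and 0.938 in Jak2WT GLUT1/3 WT, 2.96 and 2.81 in Jak2WT dKO, 0.552 and 0.817 in Jak2V617F GLUT1/3 WT, and 1.27 and 1.74 in Jak2V617F dKO. All 4 dKO libraries had a higher ratio than all 4 GLUT1/3 WT libraries, by 1.33 on the log2 scale on average (2.51-fold). Within each GLUT1/3 genotype both Jak2V617F clones had a lower ratio than both Jak2WT clones, by -0.77 on average. In two-sided exact permutation tests with shuffling inside the other factor, both gave p = 0.0556, which is the smallest that 36 arrangements allow, and 0.0556 after adjustment over the 2 tests. These permutation tests could thus not reach 0.05. The ratio concerns transcripts, and neither enzyme activity nor O-GlcNAc itself was measured in these libraries.

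**Figure D4:**
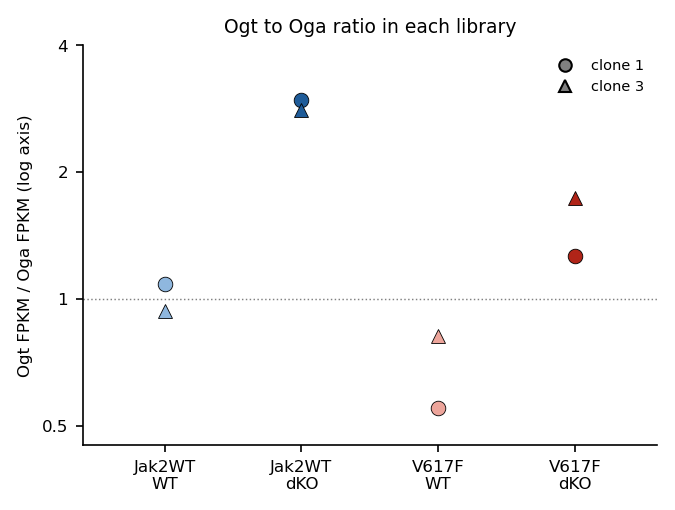
Ratio of Ogt FPKM to Oga FPKM (vertical log axis) in each of the 8 libraries by group, with circles for clone 1 and triangles for clone 3 and a dotted line at 1. The dKO libraries lie at 1.27 to 2.96 and the GLUT1/3 WT libraries at 0.552 to 1.08.

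Between the backgrounds, Uap1 was called lower in Jak2V617F in both GLUT1/3 genotypes, and Pgm3 and Ogt were called in neither. Among the GLUT1/3 WT clones limma called 0 members higher and 1, Uap1, lower, against 15.3% and 14.9% of all genes. At an unadjusted p under 0.05 there were 1 higher, Oga, and 2 lower, and voom on the recovered reads called 1 higher and 1 lower. The median difference was -0.12 over the members and 0.0076 over all genes. Scaling the libraries to the same summed FPKM shifted the median of all genes to -0.12 and the share of higher calls from 50.7% to 29.5%. Among the dKO clones 1 member, Oga, was called higher and 3, Gfpt1, Uap1 and Nagk, lower, against 7.12% and 9.96% of all genes, and the medians were -0.33 and -0.023. For the interaction, limma called 0 members higher (0 also at an unadjusted p under 0.05, and 0 by voom) and 1, Gfpt1, lower, against 4.72% and 5.91%, with medians of -0.081 and -0.039. The same scaling moved the median interaction of all genes to 0.12 and the share of higher calls from 44.4% to 75.0%.

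As a description over the 8 libraries, which share these clones and their groups, Gfpt1, Pgm3 and Uap1 followed each other with r of 0.813 to 0.925, and each ran opposite to Oga, with r of -0.924 to -0.835. Nagk and Ogt followed neither side closely, with r of -0.051 and -0.11 with Oga.

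The surroundings of the pathway were followed in a list of 34 other genes, of which 31 passed the filter and Gfpt2, Mgat3 and Eogt did not. In Jak2WT 1 of the 31 was higher and 4 lower in dKO clones, and in Jak2V617F 4 were higher and 7 lower, with medians of -0.036 and -0.044. Of all genes, 7.62% were higher and 6.06% lower in Jak2WT and 13.7% and 16.2% in Jak2V617F. With 1 library of the compared groups left out, fewer of the 31 were called, and fewer of all genes as well. At the entry, Gpi1, Hk1 and Hk2 fell in both backgrounds, while Hk3, another hexokinase, differed by -0.040 (adjusted p = 0.972) and -0.055 (adjusted p = 0.956). In Jak2V617F the mean FPKM of Hk3 was higher in dKO, at 39.3 against 32.0, with dKO clones at 14.0 and 64.7. Gpi1, glucose-6-phosphate isomerase, which supplies the fructose-6-phosphate, went from 181 and 181 to 126 and 126 FPKM in Jak2WT and from 264 and 227 to 112 and 95.5 in Jak2V617F, a fall by 0.52 (limma, adjusted p = 0.0235) and by 1.24 (adjusted p = 0.00055). Hk2, the inducible hexokinase, fell by 0.46 (adjusted p = 0.0279) and by 1.17 (adjusted p = 0.00055), and Hk1 fell by 0.45 (adjusted p = 0.0400) and by 0.52 (adjusted p = 0.0134). Amdhd2, which removes the acetyl group from GlcNAc-6-phosphate and so runs against the pathway, fell in Jak2WT from 2.78 and 2.99 to 1.61 and 1.30 FPKM (adjusted p = 0.0153) and was at 1.67 and 1.49 against 2.16 and 2.37 in Jak2V617F, a difference of 0.34 that did not pass.

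**Figure D5:**
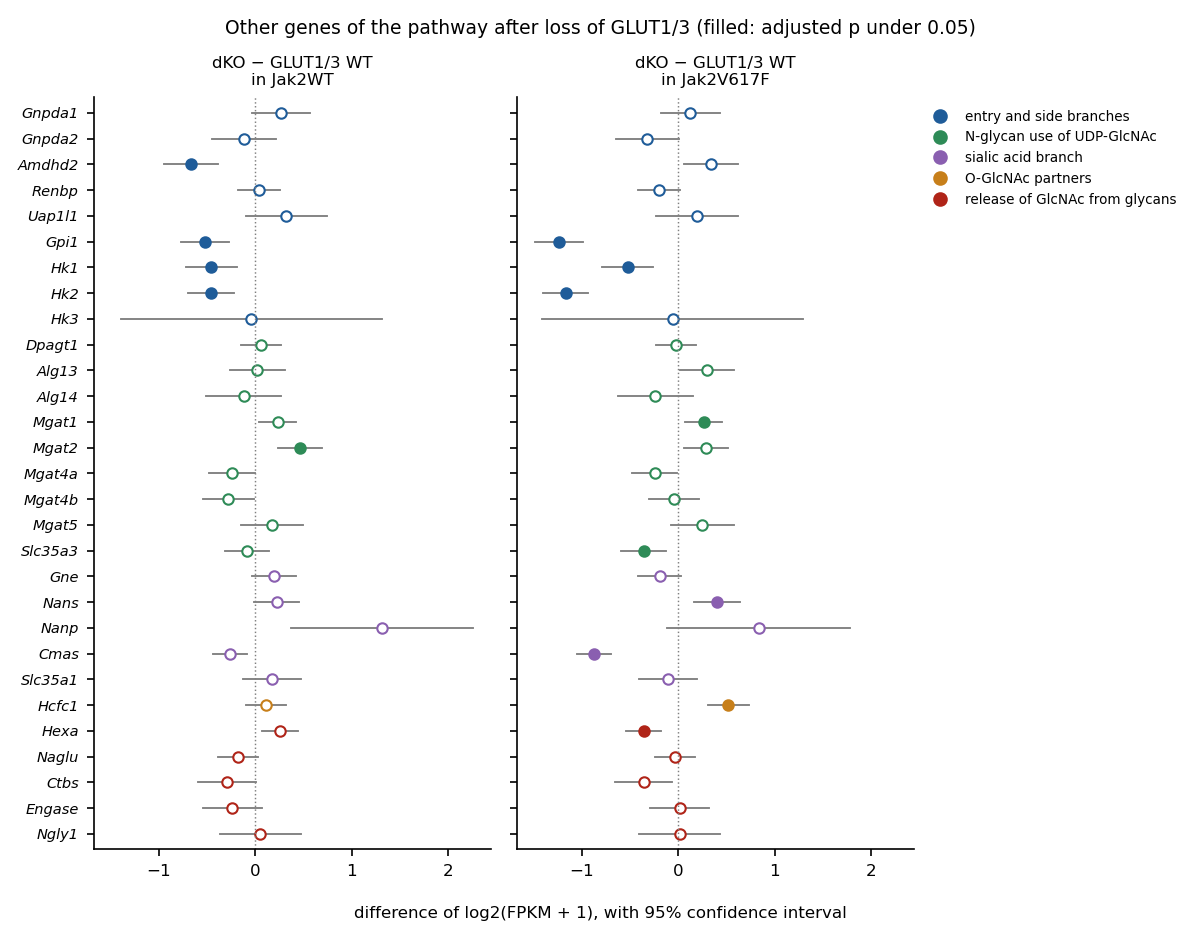
Difference of log2(FPKM + 1) between dKO and GLUT1/3 WT clones with its 95% confidence interval for other genes of the pathway, in Jak2WT and in Jak2V617F, coloured by list and filled where the adjusted p was under 0.05. Gpi1, Hk1 and Hk2 are filled on the left in both panels, and Amdhd2 lies left of 0 in Jak2WT and right of it in Jak2V617F.

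Among 10 tested genes that use UDP-GlcNAc for N-glycans, 1 was higher in Jak2WT dKO, Mgat2, an N-acetylglucosaminyltransferase of complex glycans (0.47, adjusted p = 0.0235). In Jak2V617F dKO, Mgat1 rose by 0.26 (adjusted p = 0.0449), and Slc35a3, the Golgi carrier of UDP-GlcNAc, fell by 0.36 (adjusted p = 0.0317). Of the 5 genes of the sialic acid branch, 0 were called in Jak2WT by limma, 2 had an unadjusted p under 0.05 (Nanp, higher, and Cmas, lower), and voom called 1, higher. In Jak2V617F, Cmas, which activates sialic acid, fell by 0.87 (adjusted p = 0.00055) and Nans, which makes it, rose by 0.40 (adjusted p = 0.0219). Hcfc1, a chromatin cofactor that OGT modifies and cleaves, rose by 0.52 in Jak2V617F (adjusted p = 0.00576) and was not called in Jak2WT (0.11). Of 6 genes that release GlcNAc from glycans, 0 were called in Jak2WT by limma, with 1, Hexa, at an unadjusted p under 0.05 with a higher level in dKO, while voom called 1 other gene, lower. In Jak2V617F Hexa, a hexosaminidase subunit, fell by 0.36 (adjusted p = 0.0146).

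Between backgrounds, 4 of the 31 were higher and 8 lower in Jak2V617F among the GLUT1/3 WT clones, and 6 were called among the dKO clones, each lower. Of all genes, 15.3% were higher and 14.9% lower among the GLUT1/3 WT clones, and 7.12% and 9.96% among the dKO clones. Without Jak2WT GLUT1/3 WT clone 1 or 3, fewer than these 12 were called. The 6 fell in number without either Jak2WT GLUT1/3 WT clone, either Jak2WT dKO clone or Jak2V617F dKO clone 1. Calls over all genes without a library are given below, and among the dKO clones they were fewer in each case. In the N-glycan list 4 of 10 were called in each genotype, each lower. Mgat5, which starts a branch of complex glycans, differed by -0.63 (limma, adjusted p = 0.0134) and -0.56 (adjusted p = 0.0325), and Mgat2 by -0.43 (adjusted p = 0.0146) and -0.62 (adjusted p = 0.00696). Mgat4b was lower among the GLUT1/3 WT clones (-0.46, adjusted p = 0.0204), and Dpagt1, which starts the lipid-linked glycan, among the dKO clones (-0.33, adjusted p = 0.0463).

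In the other lists, Hk3 showed the widest gap, at 141 to 179 FPKM in the 4 Jak2WT and 14.0 to 64.7 in the 4 Jak2V617F libraries (-2.33, adjusted p = 0.0211, and -2.35, adjusted p = 0.0330), and it also had the widest spread within a group. In the sialic acid branch Cmas and Gne, the enzyme that commits UDP-GlcNAc to sialic acid, were higher in Jak2V617F GLUT1/3 WT than in Jak2WT GLUT1/3 WT, by 0.77 (adjusted p = 0.000872) and 0.53 (adjusted p = 0.00700). Among the same clones Gpi1 was higher by 0.44 (adjusted p = 0.0207) and Hexa by 0.44 (adjusted p = 0.00652), whereas Amdhd2 differed by -0.59 (adjusted p = 0.00996), Hcfc1 by -0.54 (adjusted p = 0.00498) and Naglu, a lysosomal glucosaminidase, by -0.29 (adjusted p = 0.0423). Among the dKO clones Hk2 differed by -0.54 (adjusted p = 0.0129).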

How the data were processed

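RNA of 8 clones of 32D cells was sequenced (poly-A, paired ends of 150 bases). Per the submitters' processing notes and the methods, the authors cleaned reads with fastp 1.0.1, aligned them to mm39 with HISAT2 2.2.1 and counted them per gene with featureCounts 2.0.6; the deposited values are FPKM, with the annotation version and strand setting not given in the sources used here. FPKM times listed gene length, in steps of 1 read, was whole within 0.01 for all values, which gave the recovered reads. The total per library that these steps imply was not the reads on genes. In Jak2V617F GLUT1/3 WT clone 1 it was 2.14e+07, below the 22854600 reads on genes.

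Genes at 1 FPKM or more in 2 or more libraries were tested with limma 3.58.1 (R 4.3.3) on log2(FPKM + 1), which understates changes of low genes, with a mean per group, all 8 libraries and a trended empirical Bayes step, and adjusted by Benjamini-Hochberg over all 11818 genes at 0.05. A 2 against 2 permutation test cannot go below p = 0.333. The fit was tried on data simulated with the same clone spread in all groups (coefficient of variation 0.1), which real clones need not have. Of 200 genes changed 2-fold in Jak2V617F dKO it recovered 159, and it called 9 others. Clones of a group differed beyond the sampling of reads (chi-square per gene 7.21 to 30.0). Exon overlaps came from GENCODE vM39. Members, lists and tests were chosen with earlier results of these data known. The genes named are the members, Slc2a1 and Slc2a3, Gfpt2 and Uap1l1, the 4 or fewer largest called genes per list and comparison, the 3 genes closest to each member and those overlapping one. Motifs, Xbp1, Runx1 and Lilrb4b values were chosen for display after values were seen. Some items of the study and its lists, counted in the totals, are not reported here.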

Additional observations from a re-analysis of the deposited data

Results flagged for a closer look

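The dKO difference in Jak2V617F minus that in Jak2WT passed the test for 1 of 6 tested members (lower) and 6 of 31 other genes of the pathway (2 higher and 4 lower), in limma adjusted over all genes tested, against 4.72% of all genes higher and 5.91% lower. For Gfpt1 it was -0.46 on the log2(FPKM + 1) scale (adjusted p = 0.0494), with a dKO difference of 0.49 in Jak2WT and 0.024 in Jak2V617F. The call for Gfpt1 was lost in 13 of 16 alternatives, each of which kept the direction. Amdhd2 had the largest of these values, 1.01 (adjusted p = 0.0177), and its clones moved in opposite directions without overlap, from 2.78 and 2.99 to 1.61 and 1.30 FPKM in Jak2WT and from 1.67 and 1.49 to 2.16 and 2.37 in Jak2V617F. Gpi1 gave -0.72 (adjusted p = 0.0314) and Hk2 gave -0.71 (adjusted p = 0.0270), both with a fall in each background. Cmas gave -0.62 (adjusted p = 0.0184). Hexa gave -0.62 (adjusted p = 0.0206), with 30.9 and 30.6 against 35.4 and 38.6 FPKM in Jak2WT and 43.2 and 41.1 against 31.8 and 33.5 in Jak2V617F. The erythroid marker sum differed between the groups in the same fit, and its part in these results was not tested. Fewer of the 6 other genes passed without any one of the 4 Jak2WT libraries or without Jak2V617F GLUT1/3 WT clone 1. Calls over all genes without a library are given below.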

How the results depend on the processing

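Each limma comparison was refitted with a smaller pseudocount (0.1), with all genes or with those of a mean FPKM over the threshold. It was refitted without the empirical Bayes trend, after scaling libraries by summed FPKM or by median ratio, and with voom on whole reads recovered from the FPKM. Further fits used the compared groups only (not for the interaction), the clone number as a replicate block, or left out each library. In the last, a lone clone is assumed to vary like the other groups. Outside the members, calls were followed as counts only. The falls of Oga in dKO clones and the lower Uap1 of Jak2V617F kept direction and call in all of them. The ratios of Ogt to Oga kept their direction, at 1.19 to 1.47 and -0.91 to -0.63 with a library left out. The interaction called 0 members with a pseudocount of 0.1, without the filter, without the trend, under both scalings and with the replicate block. For dKO in Jak2V617F 1 member was called without the filter and with the groups compared alone. For Jak2V617F against Jak2WT among GLUT1/3 WT clones 2 were called without the trend, with the same summed FPKM, with voom and with the groups compared alone. Of all genes, 714 were called for dKO in Jak2WT and 346 for the interaction without the filter, and 1617 for dKO in Jak2V617F and 1028 for Jak2V617F against Jak2WT among dKO clones with the groups compared alone, against 1617, 1256, 3533 and 2019 as reported.

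Without one library, 1 to 3 members and 110 to 1974 genes were called for dKO in Jak2WT, 1 to 2 and 2131 to 2985 for dKO in Jak2V617F, 1 to 3 and 1583 to 3969 for Jak2V617F among GLUT1/3 WT clones, 1 to 4 and 620 to 1992 among dKO clones, and 0 to 2 and 5 to 1256 for the interaction, the 5 without Jak2WT GLUT1/3 WT clone 3. The values that reversed had not been called. They were Ogt for dKO in Jak2WT (-0.17 to 0.11 without one library), Ogt and Gfpt1 for dKO in Jak2V617F (-0.24 to 0.38 and -0.060 to 0.11), Ogt and Pgm3 for Jak2V617F among GLUT1/3 WT clones (-0.47 to 0.16 and -0.11 to 0.036), and the interactions of Uap1 (-0.19 to 0.053) and Ogt (-0.21 to 0.42). With the same summed FPKM the interaction of Uap1 was 0.11 and that of Nagk 0.045. The cause was not tested.

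Clones of the same number in 2 groups deviated with r of -0.25 to 0.15, and nothing says that they share an origin. With the replicate block 3, 2, 1 and 3 members were called in the 4 comparisons in the order above and 0 for the interaction, with 1323, 3226, 3355, 1769 and 956 genes of all. The values of Gnpnat1 rest on 15 to 39 reads per library, and those of the others on 2 clones per group.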
